A study of Mus musculus with 57 samples.

Results

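Asns, Pycr1, Aldh18a1, Prodh, Got1, Got2, Gpt2 and Glul encode enzymes that make or break down asparagine, proline, aspartate, alanine and glutamine, with glutamate as the metabolite most of them share. These 8 genes were taken by symbol from the count tables, 8 of 52853 genes, by a rule that sets no threshold on their values, though earlier results of these data were known when the list was made, and all 8 were measured in every group. Expression was measured by bulk RNA sequencing of inguinal white adipose tissue (WAT, a subcutaneous depot) and brown adipose tissue (BAT, the heat-producing depot) of male mice on a C57BL/6J background. Knock-in (KI) mice were homozygous for Mfn2 R707W, an arginine to tryptophan change in mitofusin 2, a mitochondrial outer membrane protein needed for fusion, and also carried a silent change used for genotyping. The study's methods report 1 additional upstream silent change (ACC to ACA) in the founder. Wild-type (WT) mice did not carry the edited allele. The line came from 1 CRISPR-Cas9 founder, and the change was present in all cells of the body. Mice were given a high-fat diet (HFD, 45% of kcal as fat) or chow from 5 weeks of age for 6 months. The groups held 8 WT and 8 KI mice for inguinal WAT on HFD, 7 WT and 6 KI mice for inguinal WAT on chow, and 6 WT and 6 KI mice for BAT on HFD. For inguinal WAT on HFD the labels list 32 libraries, 2 for each of 16 mice, and the table gives 1 column a mouse, so each mouse counted once.

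Asparagine synthetase (Asns) moves the amide nitrogen of glutamine to aspartate in the cytosol. Proline is built from glutamate in mitochondria by pyrroline-5-carboxylate synthase (Aldh18a1) and pyrroline-5-carboxylate reductase (Pycr1), and is broken down there by proline dehydrogenase (Prodh), a flavoenzyme of the inner membrane. Got1 in the cytosol and Got2 in mitochondria exchange amino groups between aspartate and glutamate and serve the malate-aspartate shuttle. Gpt2, the mitochondrial alanine aminotransferase, links alanine to pyruvate, and glutamine synthetase (Glul) fixes ammonia onto glutamate in the cytosol. Asns, Aldh18a1 and Pycr1 are textbook targets of the transcription factor ATF4 in the integrated stress response, and the Asns promoter is where an amino acid response element was characterised in detail.

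The promoters of the members (RefSeq, build GRCm38.p6, 250 bases before to 50 bases after the transcript start) were searched on both strands for TGATGNAA, the 8-letter core of the C/EBP-ATF response element. The core was found in 3 of 8 members (37.5%) and in 3.97% of the 32851 promoters in the table. The 3 stretches that hold it are given here, 5′ to 3′ along the gene's own strand, because they are where these promoters share letters. Capitals mark the core, and in Got1 it reads on the strand opposite to the gene.
Asns, minus strand, chr6:7693225-7693272: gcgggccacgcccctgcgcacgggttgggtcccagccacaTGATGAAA
Pycr1, minus strand, chr11:120643804-120643891: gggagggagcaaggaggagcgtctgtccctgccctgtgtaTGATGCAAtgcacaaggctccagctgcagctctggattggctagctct
Got1, minus strand, chr19:43524660-43524747: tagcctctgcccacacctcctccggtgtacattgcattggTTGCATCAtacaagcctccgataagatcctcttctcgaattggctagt
The core began 23 bases before the transcript start of Asns, 103 before that of Pycr1 and 102 before that of Got1. The Asns core lies inside the first exon of the longer GENCODE vM21 gene model. These letters were not in the searched windows of Aldh18a1, Prodh, Got2, Gpt2 and Glul. A match of letters is a description and not a measured binding site.

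Total counts ranged from 8042591 to 25680411 a mouse, with the HFD inguinal table the deepest. Levels are given as CPM, a gene's count relative to the total count of its column, with the totals scaled by the TMM method over all 41 mouse columns. A gene was called changed at a Benjamini-Hochberg adjusted p below 0.01 in the quasi-likelihood test of edgeR over all genes tested. The study's methods set the same threshold but with another test, DESeq2, which served here as an alternative. The BAT columns held 4164 to 8515 CPM of Ucp1, the defining gene of brown adipocytes, and no inguinal column exceeded 1.77 CPM. The share of counts from mitochondrially encoded genes moved with genotype on HFD, from 5.40% to 14.8% in WT and 2.15% to 3.68% in KI in inguinal WAT, and from 14.6% to 18.4% in WT and 10.6% to 12.8% in KI in BAT. On chow these shares overlapped, at 2.39% to 5.12% in WT and 1.73% to 3.84% in KI mice. Adipoq, the adipocyte hormone adiponectin, spanned 2185 to 3185 CPM in WT and 1213 to 1889 CPM in KI inguinal WAT on HFD, without overlap. Its ranges overlapped on chow (1861 to 3751 CPM in WT, 1641 to 2244 CPM in KI) and in BAT (999.8 to 1251 CPM and 574 to 1057 CPM), as did those of the lipid droplet gene Plin1 in inguinal WAT on HFD (1033 to 1745 and 1140 to 2182 CPM). The median of Adipoq was lower in KI than WT mice there too, at 1820 against 2882 CPM on chow and 632 against 1106 CPM in BAT. Of 8 macrophage markers, 0 were called higher and 1 lower in inguinal WAT on HFD, and 0 on chow and in BAT. Their median log2 fold changes, KI against WT, were -0.42, -0.58 and -0.51 in that order. Those of 7 fibroblast and progenitor markers were -0.28, -0.51 and -0.61, with 1 called lower in BAT. For 6 adipocyte markers they were 0.09, -0.01 and -0.11, and for all genes tested 0.01, -0.01 and -0.01. Genes called lower made up 5.24%, 1.27% and 0.475% of those tested. The part of these shifts in the results was not tested. Some columns held transcripts of other tissues. The summed level of 8 skeletal muscle markers was 66885 CPM in KI mouse 4 on chow, against a group median of 127 CPM, and the summed level of 8 lymphocyte markers was 452 CPM in WT mouse 2 and 665 CPM in KI mouse 2 on HFD and 409 CPM in KI mouse 3 on chow. Each comparison was therefore also fitted without the 10 columns over 1000 CPM of muscle or 200 CPM of lymphocyte markers, limits that were set after the values were seen. That left 5 WT and 5 KI mice for inguinal WAT on HFD, 7 and 4 on chow, and 4 and 6 for BAT. WT mouse 4 on chow stayed in these fits. It held 123 CPM of 5 epithelium markers (group median 0.377) and 2027 CPM of 8 macrophage markers (group median 628). In bulk tissue, fewer cells of a type and less RNA per cell cannot be told apart. The edited gene Mfn2 had a log2 difference of 0.34 ± 0.0901 (SE, adjusted p = 0.0114, edgeR) in inguinal WAT on HFD, 0.36 ± 0.123 (adjusted p = 0.0840) on chow and 0.29 ± 0.109 (adjusted p = 0.113) in BAT, none of them past the threshold.

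KI mice had higher Asns and Aldh18a1 mRNA than WT mice in all 3 comparisons, with no overlap between the genotypes in any of them. Of all genes tested, 2.09% did not overlap with KI higher in the HFD inguinal table, 2.75% in the chow table and 2.64% in that of BAT, while 4.53%, 4.22% and 3.69% did not overlap in either direction. In inguinal WAT on HFD 4 of 8 members were called higher (Asns, Aldh18a1, Prodh and Got2) and 0 lower, where 6.21% of 16471 genes tested were called higher, 5.24% lower and 11.5% in either direction. On chow 2 of 8 were called higher (Asns and Aldh18a1) and 0 lower, where 1.96% of 14629 genes were called higher, 1.27% lower and 3.23% in either direction. In BAT on HFD 3 of 8 were called higher (Aldh18a1, Got1 and Asns) and 0 lower, where 1.36% of 13267 genes were called higher, 0.475% lower and 1.83% in either direction. All 8 members passed the filter on low counts in each comparison, Pycr1 in BAT only through its KI columns. The median log2 fold change of the 8 members was 0.49 in inguinal WAT on HFD and 0.34 on chow, and that of all genes tested was 0.01 and -0.01.

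**Figure D1:**
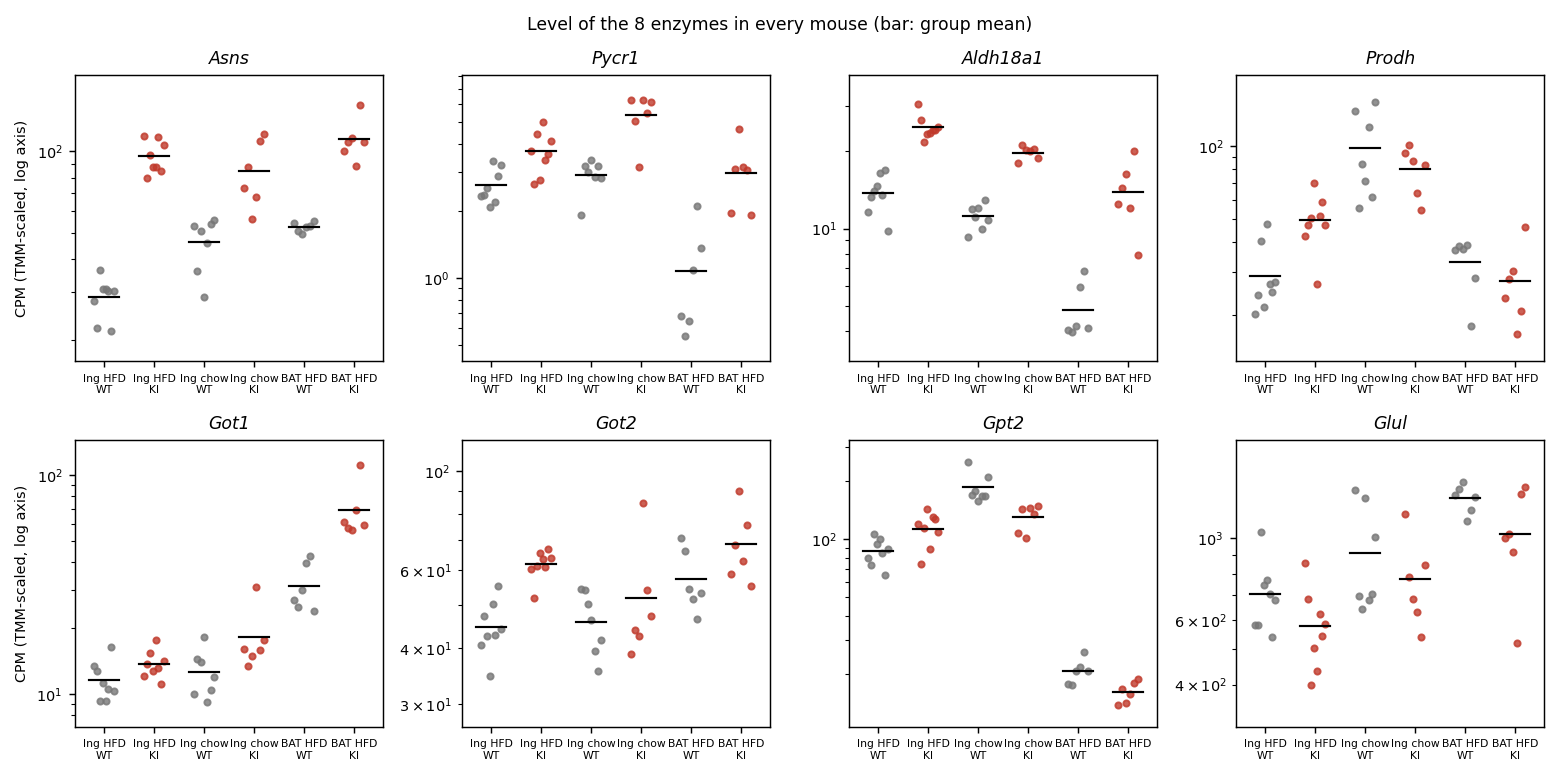
Level of each of the 8 enzymes in every mouse, as CPM on a log axis, with 1 dot a mouse, WT in grey, KI in red and the group mean as a bar. KI mice lie above all WT mice for Asns and Aldh18a1 in each tissue and diet, and for Got1 in BAT, where the KI mice span 56.2 to 111 CPM and the WT mice 23.9 to 42.7 CPM.

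Asns (chr6:7675169-7693254, minus strand, GRCm38 as are all spans here) was the member that rose most in inguinal WAT on HFD. The 8 WT mice there spanned 21.7 to 36.3 CPM with a median of 30.4 CPM, and the 8 KI mice 79.7 to 114 CPM with a median of 92.4 CPM. All KI mice were above all WT mice, and the difference was 3.35-fold (log2 1.75 ± 0.107 SE, adjusted p = 3.87e-09, edgeR), place 40 by size among the 1023 genes called higher. On chow the 7 WT mice spanned 28.9 to 55.7 CPM (median 50.6) and the 6 KI mice 56.2 to 116 CPM (median 80.4). The groups did not overlap but nearly touched, and the difference was 1.83-fold (log2 0.87 ± 0.183, adjusted p = 0.00932, edgeR). This call was lost when any 1 of 10 of the 13 mice was left out (adjusted p 0.00468 to 0.0229 over the 13 fits, log2 0.76 to 0.96), and without the muscle and lymphocyte columns it was 1.05 ± 0.173 (adjusted p = 0.00323). In BAT the 6 WT mice lay within 49.5 to 55.1 CPM (median 52.6) and the 6 KI mice within 88.2 to 148 CPM (median 108), a 2.05-fold difference (log2 1.04 ± 0.107, adjusted p = 3.66e-05, edgeR). The spread among BAT WT mice was the narrowest of the 6 groups, with an SD of 2.12 CPM around a mean of 52.5 CPM.

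Aldh18a1 (chr19:40550257-40588463, minus strand), the first enzyme of proline synthesis from glutamate, rose in both tissues and on both diets. On HFD it went from 9.81 to 16.9 CPM in WT mice (median 13.8) to 21.8 to 30.5 CPM in KI mice (median 24.1). This was a 1.81-fold difference with no overlap (log2 0.86 ± 0.103, adjusted p = 8.56e-06, edgeR). On chow WT mice spanned 9.30 to 12.96 CPM (median 11.1) and KI mice 17.99 to 21.2 CPM (median 20.1), 1.76-fold apart (log2 0.81 ± 0.0954, adjusted p = 1.55e-04, edgeR). The difference between the diets in this KI effect was 0.05 ± 0.141 on the log2 scale (adjusted p = 0.897), HFD minus chow. BAT held less Aldh18a1, 3.97 to 6.86 CPM in WT mice (median 4.14) and 7.87 to 19.96 CPM in KI mice (median 13.4). The BAT difference was 2.76-fold (log2 1.47 ± 0.215, adjusted p = 8.42e-04, edgeR), again with no overlap. It was called in all 41 fits that left out 1 mouse and in all 3 comparisons without the muscle and lymphocyte columns.

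Pycr1 (chr11:120635712-120643769, minus strand), which reduces pyrroline-5-carboxylate to proline, was the scarcest member. Its KI differences did not pass the threshold in either diet of inguinal WAT or in BAT. On HFD the inguinal WAT of WT mice spanned 2.09 to 3.35 CPM (median 2.45) and KI mice 2.65 to 4.98 CPM (median 3.66), with a log2 difference of 0.51 ± 0.153 (adjusted p = 0.0244, edgeR). On chow WT mice spanned 1.91 to 3.39 CPM (median 3.00) and KI mice 3.15 to 6.28 CPM (median 5.82), and 5 of 6 KI mice were above every WT mouse. The log2 difference on chow was 0.88 ± 0.191 (adjusted p = 0.0108, edgeR) and became 0.96 ± 0.187 (adjusted p = 0.00858) without the muscle and lymphocyte columns. In BAT the counts were low, 4 to 15 reads a WT mouse and 12 to 32 a KI mouse, or 0.551 to 2.10 CPM (median 0.881) against 1.93 to 4.65 CPM (median 3.06). The BAT log2 difference of 1.42 ± 0.342 is given as a description, since Pycr1 was tested there only because its KI columns passed the filter on low counts. DESeq2, the alternative count test, called Pycr1 higher on chow (adjusted p = 4.75e-04).

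Prodh (chr16:18060357-18090203, minus strand), the first enzyme of proline breakdown, was called higher with the knock-in on HFD in inguinal WAT alone. The WT mice there spanned 20.2 to 47.4 CPM (median 25.8) and the KI mice 26.9 to 70.5 CPM (median 48.8). The groups overlapped, 4 of 8 KI mice being above every WT mouse, and the difference was 1.70-fold (log2 0.77 ± 0.194, adjusted p = 0.00935, edgeR). That call lay just inside the threshold, was lost in 13 of 16 fits without 1 mouse (log2 0.68 to 0.90, adjusted p 0.00196 to 0.0239), and became 0.74 ± 0.215 (adjusted p = 0.0367) without the muscle and lymphocyte columns. On chow WT mice spanned 55.2 to 152 CPM (median 84.5) and KI mice 54.2 to 101 CPM (median 85.1), with a log2 difference of -0.29 ± 0.245 (adjusted p = 0.505). In BAT WT mice spanned 17.9 to 38.9 CPM (median 37.3) and KI mice 16.7 to 46.4 CPM (median 25.9), with a log2 difference of -0.31 ± 0.235 (adjusted p = 0.442). The groups overlapped in both. The KI effect on HFD minus that on chow was 1.07 ± 0.328 (adjusted p = 0.0719) and that in BAT minus that in inguinal WAT -1.03 ± 0.325 (adjusted p = 0.0489), neither past the threshold.

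**Figure D2:**
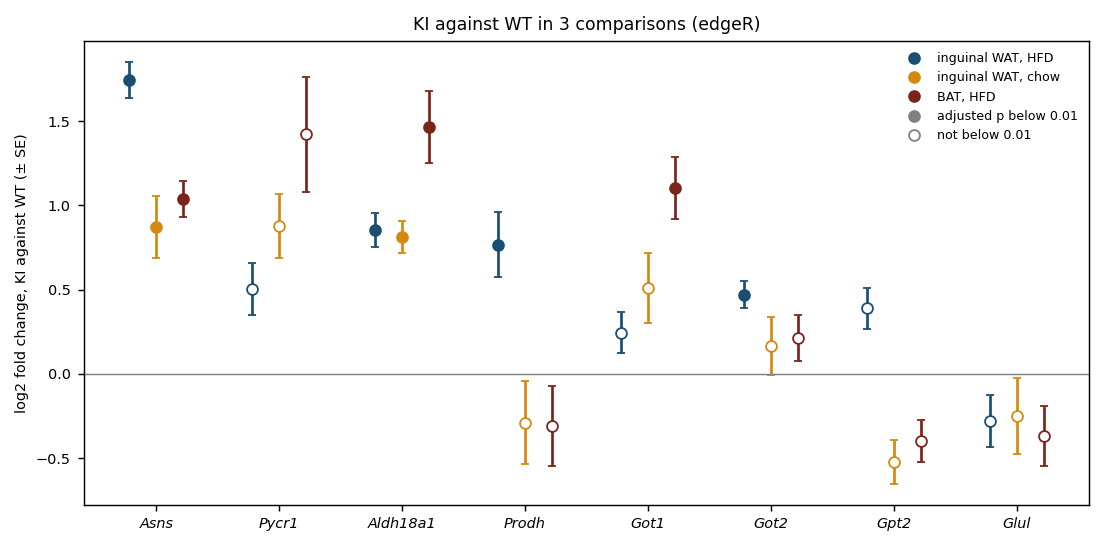
Log2 fold change of KI against WT for each enzyme in inguinal WAT on HFD (blue), inguinal WAT on chow (orange) and BAT on HFD (dark red), with SE bars, where filled circles have an adjusted p below 0.01. Asns and Aldh18a1 are filled in all 3 comparisons, Got1 in BAT and Prodh and Got2 in inguinal WAT on HFD, while Glul lies below 0 and open in all 3.

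Of the aspartate aminotransferases, Got1 was called higher in KI mice in BAT and Got2 in inguinal WAT on HFD. Got1 (chr19:43499752-43524605, minus strand), the cytosolic enzyme, spanned 23.9 to 42.7 CPM in BAT of WT mice (median 28.3) and 56.2 to 111 CPM in KI mice (median 60.1). All KI mice were above all WT mice, a 2.15-fold difference (log2 1.10 ± 0.183, adjusted p = 0.00223, edgeR) that was called in all 12 fits without 1 mouse. It was 1.00 ± 0.212 (adjusted p = 0.0170) without WT mice 1 and 2, which held muscle transcripts. Inguinal WAT on HFD held less Got1, which spanned 9.27 to 16.4 CPM in WT (median 10.9) and 11.1 to 17.6 CPM in KI mice (median 13.4), with a log2 difference of 0.25 ± 0.123 (adjusted p = 0.176). On chow it spanned 9.24 to 18.2 CPM (median 11.9) and 13.4 to 30.8 CPM (median 16.0), with a log2 difference of 0.51 ± 0.208 (adjusted p = 0.145). The highest value, 30.8 CPM, was that of the muscle-rich KI mouse 4, and without that mouse the log2 difference was 0.29 (adjusted p = 0.316). The KI effect on Got1 in BAT minus that in inguinal WAT was 0.90 ± 0.223 (adjusted p = 0.0118, edgeR), just outside the threshold.

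Got2 (chr8:95864134-95888547, minus strand), the mitochondrial enzyme, was called only in inguinal WAT on HFD among the 3 KI comparisons. WT mice there spanned 34.8 to 55.3 CPM (median 43.5) and KI mice 51.9 to 66.7 CPM (median 62.4). A single KI mouse, number 2, lay within the WT range, and the difference was 1.39-fold (log2 0.47 ± 0.0784, adjusted p = 2.80e-04, edgeR), called in all 16 fits without 1 mouse. In BAT Got2 spanned 46.6 to 70.7 CPM in WT (median 53.8) and 55.2 to 90.2 CPM in KI mice (median 65.6), with a log2 difference of 0.21 ± 0.136 (adjusted p = 0.347). On chow it spanned 35.6 to 54.2 CPM (median 46.3) and 39.0 to 84.6 CPM (median 45.6), a log2 difference of 0.17 ± 0.170 (adjusted p = 0.590). The 84.6 CPM again belonged to KI mouse 4, and without it the difference was -0.02 (adjusted p = 0.935). The diet difference of the KI effect on Got2 was 0.32 ± 0.183 (adjusted p = 0.399) and the tissue difference -0.21 ± 0.154 (adjusted p = 0.453), so a difference between comparisons was not shown. The annotation places the gene Gm45760 on the opposite strand with 434 shared exon bases. Gm45760 held 13 to 362 counts against at least 333 for Got2, and whether the counting used strand is not given in the sources used here.

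Per length of gene model, Got1 was higher relative to Got2 in BAT than in inguinal WAT on HFD. The log2 ratio of Got1 to Got2 within a mouse had a mean of -1.03 ± 0.290 (SD, n = 8) in WT inguinal WAT on HFD and 0.04 ± 0.536 (n = 6) in WT BAT. In KI mice it was -1.25 ± 0.247 (n = 8) in inguinal WAT on HFD, -0.60 ± 0.187 (n = 6) on chow and 0.91 ± 0.419 (n = 6) in BAT. Every BAT mouse, of either genotype, lay above every HFD inguinal mouse. On chow the WT mean was -0.96 ± 0.332 (n = 7).

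Gpt2 (chr8:85492576-85527560, plus strand), which makes alanine from pyruvate and glutamate, was higher in KI than WT mice by its mean on HFD and lower on chow in the same depot. WT mice on HFD spanned 65.5 to 106 CPM (median 86.8) and KI mice 74.2 to 143 CPM (median 117), a log2 difference of 0.39 ± 0.121 (adjusted p = 0.0274, edgeR). On chow WT mice spanned 157 to 251 CPM (median 169) and KI mice 101 to 149 CPM (median 139). All 6 KI mice on chow were below all 7 WT mice, with a log2 difference of -0.52 ± 0.128 (adjusted p = 0.0206, edgeR), so the difference was not called. It was called in 2 of 7 alternative fits, DESeq2 and the fit of all 6 groups, and in 0 of 13 fits without 1 mouse. Of all genes tested on chow, 4.22% did not overlap between the genotypes in either direction and 1.47% with KI lower. In BAT WT mice spanned 17.5 to 26.2 CPM (median 20.8) and KI mice 13.9 to 18.9 CPM (median 16.2), a log2 difference of -0.40 ± 0.123 (adjusted p = 0.0605).

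The differences between these effects were themselves tested. Gpt2 was the 1 member of 8 called for the diet difference of the KI effect, at 0.93 ± 0.192 (adjusted p = 0.00797, edgeR), where 0.632% of 17400 genes were called, 0.207% higher and 0.425% lower. It was 0.96 ± 0.193 (adjusted p = 0.0336) without the muscle and lymphocyte columns, a fit in which 1 gene was called in place of 110. Gpt2 and Asns were the 2 members of 8 called for the tissue difference of the KI effect, where 2.82% of 17214 genes were called, 1.58% higher and 1.24% lower. The effect on Gpt2 was lower in BAT than in inguinal WAT by -0.75 ± 0.182 (adjusted p = 0.00943) and that on Asns by -0.67 ± 0.158 (adjusted p = 0.00792). Without the muscle and lymphocyte columns the value was -0.95 ± 0.177 (adjusted p = 0.00254) for Gpt2 and -0.69 ± 0.190 (adjusted p = 0.0415) for Asns. The diet difference for Asns was 0.89 ± 0.216 (adjusted p = 0.0204), and the tissue difference for Aldh18a1 was 0.65 ± 0.224 (adjusted p = 0.0719) and for Pycr1 0.96 ± 0.349 (adjusted p = 0.0919). The KI comparison in inguinal WAT on HFD enters both of these tests, so the 2 share its mice, and diet or tissue cannot be told apart from the table and its sequencing depth.

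Glul (chr1:153899944-153909723, plus strand), glutamine synthetase, was by far the most abundant member and was called in no KI comparison. On HFD, inguinal WAT of WT mice spanned 539.9 to 1040.1 CPM (median 692) and KI mice 400.0 to 855 CPM (median 564), a log2 difference of -0.28 ± 0.154 (adjusted p = 0.219). On chow the spans were 643 to 1355 CPM (median 707) and 538 to 1164 CPM (median 733), a log2 difference of -0.25 ± 0.225 (adjusted p = 0.534). In BAT they were 1115 to 1425 CPM (median 1304) and 519.6 to 1377 CPM (median 1015), a log2 difference of -0.37 ± 0.179 (adjusted p = 0.215). The genotypes overlapped in each, and 4 of 6 KI mice in BAT were below every WT mouse. Glul shares 116 exon bases with Teddm2 on the opposite strand (87 to 824 counts) and 93 with Mir8114 (0 to 2 counts), against at least 4632 counts of its own.

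An exact two-sided permutation test of the mean log2 CPM over mice, which does not rest on the count model, was run for the 8 members in 3 tables, 24 tests whose p-values are given unadjusted. Asns and Aldh18a1 reached the smallest p that the divisions of the mice can give in each table, 1.55e-04 on HFD, 5.83e-04 on chow and 0.00216 in BAT. So did Got1 in BAT and Gpt2 on chow. None of these overlapped between the genotypes, so their p-values restate that separation and add no separate support. Of all genes tested, 4.53% on HFD in inguinal WAT, 4.22% on chow and 3.69% in BAT did not overlap in either direction. The permutation p of Gpt2 was 0.0188 in inguinal WAT on HFD, where its mean was higher in KI mice, and 0.0152 in BAT, where it was lower. In inguinal WAT on HFD the permutation p was 3.11e-04 for Got2, 0.00326 for Prodh and 0.00575 for Pycr1. On chow it was 0.00233 for Pycr1 and 0.0326 for Got1. All of these were higher in KI mice, and the other tests in inguinal WAT gave 0.0650 or more.

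The members were also compared between diets and between tissues among WT mice. In inguinal WAT, 3 of 8 members were called lower on HFD than on chow and 0 higher, where 15.4% of 16318 genes were called lower, 12.2% higher and 27.7% in either direction. The count of members was not tested against that share. Diet cannot be told apart here from the table and its sequencing depth. Prodh was 3.40-fold lower on HFD (log2 -1.77 ± 0.253, adjusted p = 6.27e-05), Gpt2 2.16-fold lower (log2 -1.11 ± 0.118, adjusted p = 2.18e-06) and Asns 1.62-fold lower (log2 -0.69 ± 0.142, adjusted p = 8.96e-04). The same WT mice are the controls of the KI comparisons above. Aldh18a1 (0.29 ± 0.117, adjusted p = 0.0531), Pycr1 (-0.16 ± 0.167, adjusted p = 0.456), Got1 (-0.13 ± 0.154, adjusted p = 0.530), Got2 (-0.05 ± 0.106, adjusted p = 0.728) and Glul (-0.38 ± 0.185, adjusted p = 0.107) were not called.

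Between tissues of WT mice on HFD, 4 of 8 members were called higher in BAT than in inguinal WAT and 3 lower, where 27.6% and 29.5% of 16271 genes were called and 57.1% in either direction, so a share of 7 in 8 lies in a comparison where most genes were called. Got1 was 2.69-fold higher in BAT (log2 1.43 ± 0.154, adjusted p = 2.20e-07), Asns 1.83-fold (log2 0.87 ± 0.105, adjusted p = 8.61e-07) and Glul 1.83-fold (log2 0.87 ± 0.131, adjusted p = 1.32e-05). Got2 was 1.28-fold higher (log2 0.36 ± 0.112, adjusted p = 0.00879), a call lost at 0.18 ± 0.133 (adjusted p = 0.261) without the muscle and lymphocyte columns. Gpt2 was 4.14-fold lower in BAT (log2 -2.05 ± 0.122, adjusted p = 6.53e-11), Aldh18a1 2.83-fold lower (log2 -1.50 ± 0.165, adjusted p = 2.88e-07) and Pycr1 2.43-fold lower (log2 -1.28 ± 0.284, adjusted p = 6.65e-04). Pycr1 passed the filter through inguinal WAT, where it is higher, and its call was also lost without those columns (-1.10 ± 0.334, adjusted p = 0.0110). Prodh differed by 0.19 ± 0.215 (adjusted p = 0.444) with all columns and by -0.08 ± 0.276 (adjusted p = 0.822) without them. Whether the BAT and the inguinal WAT came from the same mice is not given in the sources used here.

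Per kilobase of gene model, Glul was highest and Pycr1 lowest in all 6 groups. The deposited length may differ from that of the transcripts present, and the order of genes and the ratios per length depend on it. In WT inguinal WAT on HFD the mean levels were 187 ± 42.0 CPM per kilobase for Glul, 15.4 ± 2.41 for Gpt2, 10.5 ± 1.79 for Asns, 9.28 ± 1.29 for Got2, 4.59 ± 0.951 for Got1, 3.73 ± 1.24 for Prodh, 3.38 ± 0.579 for Aldh18a1 and 0.666 ± 0.121 for Pycr1 (SD, n = 8). Neighbours in that order overlapped in their ranges over mice from Gpt2 to Got2 and from Got1 to Aldh18a1. Ranges did not overlap between Glul and Gpt2, Got2 and Got1, or Aldh18a1 and Pycr1. In KI mice of that group Asns stood second at 35.2 ± 4.90 CPM per kilobase, above Gpt2 at 20.1 ± 3.97. Among all genes Asns moved from place 4164 in WT to place 1308 in KI mice by level per kilobase, and Glul held places 186 and 238.

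In WT BAT Asns also stood second, at 19.2 ± 0.776 CPM per kilobase (SD, n = 6), ahead of Got1 at 12.3 ± 3.14 and Got2 at 11.8 ± 1.92, whose ranges overlapped. Gpt2, second in WT inguinal WAT on both diets, stood sixth in WT BAT at 3.69 ± 0.555 CPM per kilobase. In KI BAT the levels were 40.6 ± 7.37 for Asns, 27.2 ± 8.37 for Got1 and 14.2 ± 2.67 for Got2, and those of Prodh, Aldh18a1 and Gpt2 overlapped in range, at means of 3.55 ± 1.34, 3.39 ± 1.01 and 2.88 ± 0.355.

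**Figure D3:**
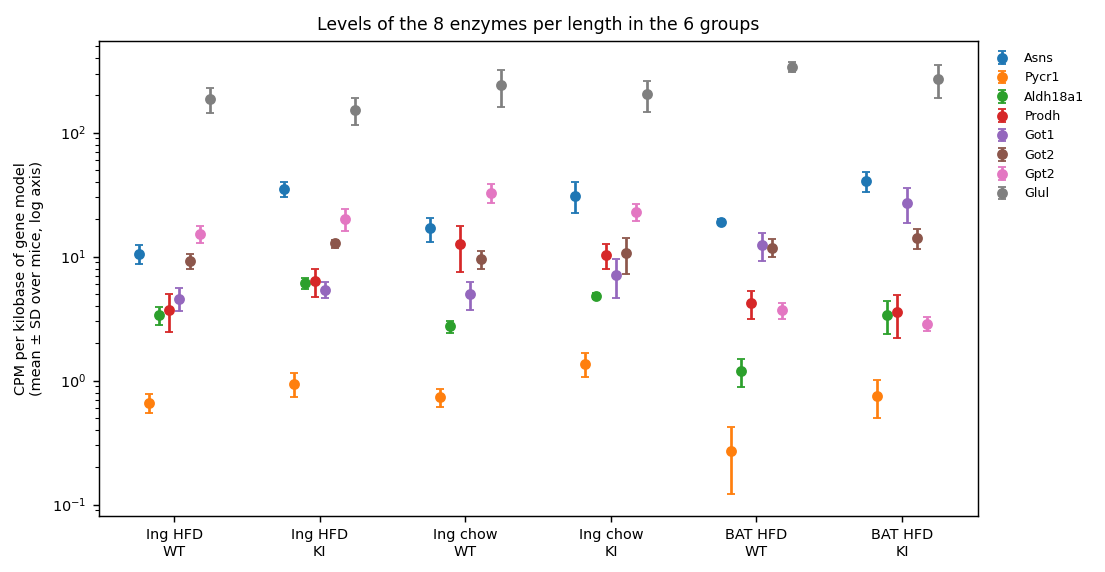
Mean level of each enzyme per kilobase of gene model (CPM per kilobase, log axis, SD bars over mice) in the 6 groups. Glul lies at 153 or above and Pycr1 at 1.37 CPM per kilobase or below in every group, while Gpt2 goes from 15.4 in WT inguinal WAT on HFD to 3.69 in WT BAT.

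The balance of enzymes within a mouse was described by ratios per length. The log2 ratio of Aldh18a1 to Prodh, the entry to proline synthesis over the entry to proline breakdown, had a mean of -2.10 ± 0.729 (SD, n = 7) in WT and -1.06 ± 0.372 (n = 6) in KI mice on chow, and of -1.82 ± 0.710 (n = 6) in WT and -0.04 ± 0.850 (n = 6) in KI BAT. In inguinal WAT on HFD it was -0.10 ± 0.420 (n = 8) in WT and -0.01 ± 0.449 (n = 8) in KI mice, where both genes were called higher. The genotypes overlapped in each case. Aldh18a1 exceeded Pycr1 per length by 1.90 ± 0.160 on the log2 scale in WT and 1.86 ± 0.430 in KI mice on chow, by 2.26 ± 0.533 and 2.18 ± 0.382 in BAT, and by 2.35 ± 0.360 and 2.72 ± 0.382 in inguinal WAT on HFD. The ratio of Asns to Glul, of which one uses glutamine and the other makes it, was -4.14 ± 0.142 in WT and -2.09 ± 0.334 in KI inguinal WAT on HFD, and -4.14 ± 0.161 in WT and -2.70 ± 0.365 in KI BAT, with no overlap in either tissue. On chow it was -3.80 ± 0.638 in WT and -2.72 ± 0.585 in KI mice, and the genotypes overlapped. No test was run on these ratios, which restate the levels above.

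**Figure D4:**
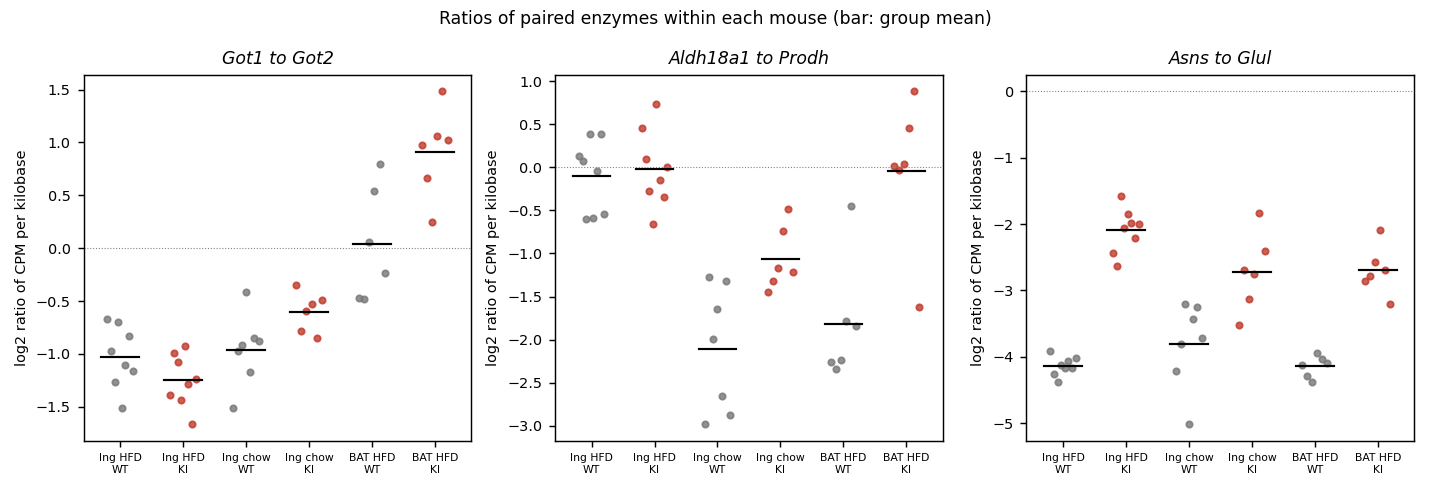
Log2 ratio of CPM per kilobase within each mouse for Got1 to Got2, Aldh18a1 to Prodh and Asns to Glul, with WT in grey, KI in red and the group mean as a bar. The Asns to Glul ratio is near -4.14 in WT mice of both HFD tissues and above -3.20 in all KI mice of those tissues.

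Other genes of the same pathways were described by counts. On HFD in inguinal WAT 6.21% of all genes tested were called higher and 5.24% lower. These shares were 1.96% and 1.27% on chow, and 1.36% and 0.475% in BAT. The median log2 fold change of all genes tested was 0.01, -0.01 and -0.01 in the 3 comparisons. They stand beside the counts and medians of every list below. Of 11 genes of asparagine and aspartate use, all 11 tested, KI mice had 4 called higher (Aspg, Aspa, Adsl and Asl) and 0 lower on HFD in inguinal WAT, and 0 on chow and in BAT. The largest rise was that of Aspg, an asparaginase that splits asparagine, with 0.714 ± 0.306 CPM in WT mice and 2.48 ± 0.948 CPM with the knock-in (SD, n = 8 each), a 3.47-fold difference (log2 1.79 ± 0.297, adjusted p = 2.58e-04, edgeR). On chow Aspg spanned 0.0939 to 2.11 CPM in WT and 2.57 to 41.0 CPM in KI mice, with no overlap. The log2 difference of 3.61 ± 0.811 was not called (adjusted p = 0.0147, edgeR). Of all genes tested on chow, 2.75% did not overlap with KI higher and 4.22% in either direction. Whether Aspg passed the filter on low counts there only through its KI columns was not checked. It stood at 226 ± 57.4 CPM in WT and 167 ± 43.8 CPM in KI BAT (n = 6 each). Aspg was also called in the tissue difference of the KI effect, at -2.23 ± 0.356 (adjusted p = 2.13e-04). In inguinal WAT on HFD the summed level of 7 brown adipocyte markers was, like Aspg, higher with the knock-in by its median. It spanned 28.5 to 62.8 CPM there, against 15.0 to 33.4 CPM for WT. The highest sums were those of KI mouse 3 and WT mouse 1, which held 4289 and 1264 CPM of the skeletal muscle markers. Of the 4 markers tested in that comparison 2 were called higher and 0 lower. Ucp1 had a lower median with the knock-in, 0.329 against 0.428 CPM, with overlapping ranges. In BAT the median of the sum was also higher, 19231 against 15215 CPM, though 0 of 7 markers were called and mean Aspg was lower. The part of this sum in the Aspg result was not tested. On chow that sum was 41.2 to 123 CPM in WT and 151 to 857 CPM in KI mice, with Ucp1 below 1 CPM in both genotypes. Of the 4 markers tested on chow 2 were called higher and 0 lower. The highest sums on chow were those of KI mouse 1 and WT mouse 5, which held 40.8 and 37.3 CPM of the skeletal muscle markers. The median log2 fold change of the list was 0.16, 0.27 and 0.06 in the 3 comparisons.

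Of 13 symbols listed for proline, ornithine and arginine metabolism, 12 were found. On HFD 3 of 10 tested in inguinal WAT were called higher (P4ha2, Odc1 and Pycrl), on chow 0 of 9, and in BAT 1 of 9 (Odc1), with 0 lower in each. P4ha2, a subunit of the prolyl hydroxylase that modifies collagen, went from 32.9 ± 7.13 to 52.6 ± 7.62 CPM on HFD (SD, n = 8 each), 1.60-fold (log2 0.68 ± 0.121, adjusted p = 4.96e-04, edgeR). Odc1, which makes putrescine from ornithine, went from 93.8 ± 13.9 to 142 ± 13.2 CPM in BAT (n = 6 each), 1.47-fold (log2 0.56 ± 0.102, adjusted p = 0.00428). Pycrl, a paralog of Pycr1 that works in the cytosol, was among those called on HFD. The list medians were -0.01, 0.01 and -0.04.

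Of 20 genes of glutamate and glutamine metabolism, 19 were tested on HFD in inguinal WAT, where 3 were called higher in KI mice (Pfas, Bcat2 and Gclc) and 1 lower (Got1l1). On chow 1 of 19 was called higher and 0 lower, and in BAT 0 of 18. Pfas, a purine synthesis enzyme that takes its nitrogen from glutamine, went from 10.3 ± 1.92 to 14.8 ± 2.67 CPM on HFD (SD, n = 8 each), 1.45-fold (log2 0.54 ± 0.132, adjusted p = 0.00681, edgeR). Got1l1, a paralog of Got1, fell from 4.67 ± 1.56 to 2.24 ± 0.757 CPM (n = 8 each), 2.08-fold (log2 -1.06 ± 0.225, adjusted p = 0.00235). Oplah, which turns 5-oxoproline into glutamate, went from 99.2 ± 20.9 CPM (n = 7) to 177 ± 48.8 CPM (n = 6) on chow, 1.77-fold (log2 0.82 ± 0.169, adjusted p = 0.00803). The list medians were 0.06, 0.03 and 0.04. Of the 7 genes of the malate-aspartate shuttle and the mitochondrial glutamate carriers, 0 of 7, 0 of 6 and 0 of 5 tested were called in the 3 comparisons, with medians of -0.19, 0.31 and 0.18.

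**Figure D5:**
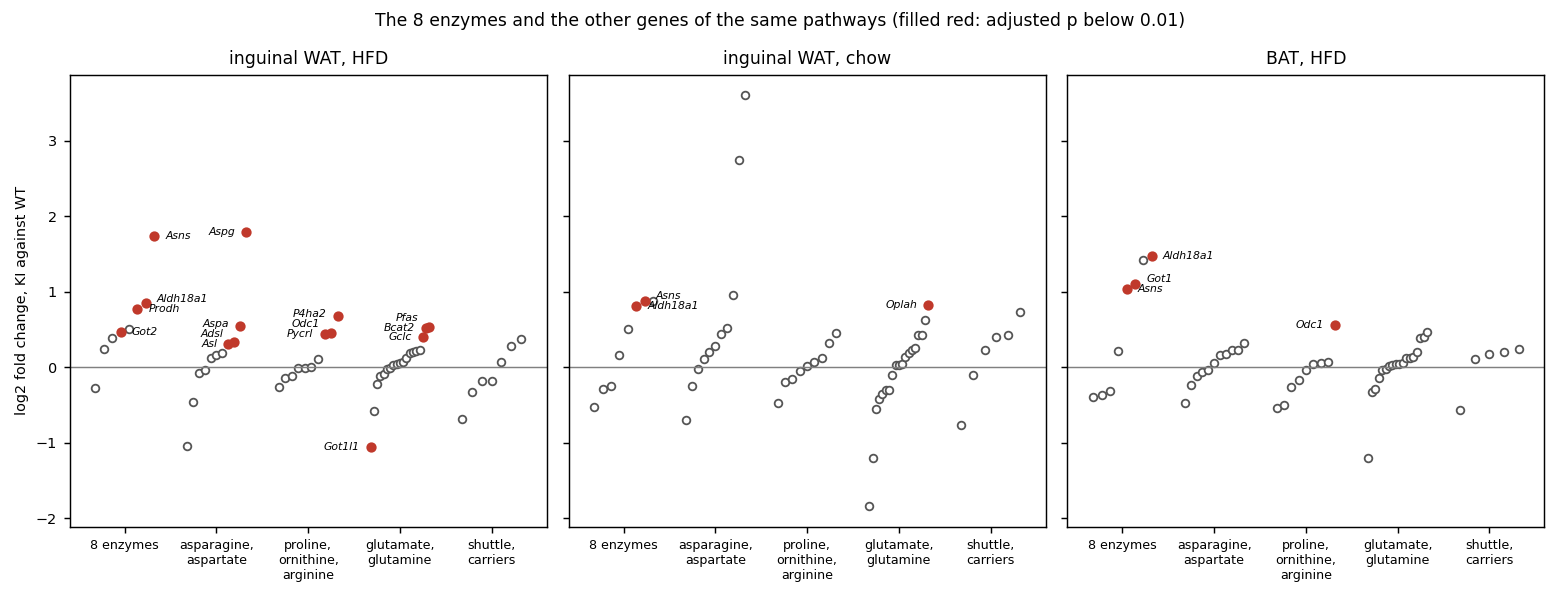
Log2 fold change of KI against WT for the 8 enzymes and for the other genes of their pathways in each of the 3 comparisons, with 1 circle a gene, filled red where the adjusted p was below 0.01. Asns and Aspg lie highest of the filled circles on HFD, at 1.75 and 1.79, and no circle of the shuttle and carrier genes is filled in any comparison.

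Genes whose mean log2 CPM over the 6 groups followed each member most closely were named by the smallest root mean square difference after centring, among 16201 genes. For Asns they were Gm12996 (0.20) and Prss36 (0.22), for Pycr1 Dnmt3l (0.21) and Pvt1 (0.21), for Aldh18a1 Maoa (0.24), and for Prodh Rsph9 (0.18) and Gm16295 (0.20), in log2 units. Closer matches were found for Got1 with Abhd6 (0.09) and 1110008P14Rik (0.14), for Got2 with Nrarp (0.06) and Rnps1 (0.07), for Gpt2 with Gm45667 (0.11) and Slc22a4 (0.17), and for Glul with Mrm2 (0.05) and Ccdc69 (0.07). The group means of the members themselves ranged over 0.60 (Got2) to 3.49 (Gpt2) log2 units. No member was among the nearest 2 genes of another member.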

How the data were processed

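RNA was sequenced from 41 mouse columns in 6 groups. The authors deposited raw read counts per gene in 3 tables (inguinal WAT on HFD, inguinal WAT on chow, BAT on HFD). Per the labels and the study's methods, reads were trimmed with cutadapt, aligned with STAR to GRCm38 and counted with featureCounts. Versions, annotation release and strand setting are not given in the sources used here, and for inguinal WAT on HFD the 2 libraries of a mouse appear as 1 column. The deposited gene length column gave levels per kilobase. Of 54838 entries, 1884 without length or count were dropped, and 200 entries of 99 shared symbols, with identical counts, were reduced to 1 each, leaving 52853 genes.

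Counts were fitted in R 4.3.3 with edgeR 4.0.16 (TMM, filterByExpr with its minimum count of 10, robust quasi-likelihood fit). Only the groups compared entered each fit, and p-values were adjusted by the Benjamini-Hochberg method over all genes tested. DESeq2 1.42.0 was an alternative. The fits were tested on simulated counts. Levels in CPM used TMM over all 41 columns, and log2 CPM a prior count of 2. Exact permutation tests enumerated all divisions of the mice. The standard error was derived from the log2 fold change and the F statistic. Groups followed the labels, and p-values reflect the spread between mice.

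The members and gene lists were chosen with earlier results of these data known. Named by rule were the 8 members in every comparison, the called gene with the largest rise and fall in each pathway list and KI comparison, the 2 nearest patterns of each member, and Mfn2. For Aldh18a1, 1 of the 2 is not reported here. Other genes called in a list were named after their values were seen. Alternatives were size factors by RLE, no low-count filter, libraries without mitochondrially encoded genes, the mouse number as a replicate block, all 6 groups in 1 fit, removal of each mouse in turn, for the permutation tests CPM without TMM scaling and, added after seeing the data, muscle or lymphocyte columns left out. Proteins were not analysed here. The limited depth of BAT leaves Pycr1 with at most 15 counts in a WT mouse.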

Additional observations from a re-analysis of the deposited data

Results flagged for a closer look

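Of 48 groups of values (8 members in 6 groups), 6 had a mouse that stood apart from the rest of its group by Dixon's 95% criterion, where chance flags about 1 in 20 groups. Got1 and Got2 were highest in the muscle-rich KI mouse 4 on chow, at 30.8 and 84.6 CPM, where the next mice were at 17.7 and 54.1 CPM. In BAT the KI mouse 5 had 111 CPM of Got1 against 69.2 CPM in the next. KI mouse 2 on HFD, which held 665 CPM of lymphocyte markers, had the lowest Got2 of its group, 51.9 CPM against 60.3 CPM in the next. WT mouse 1 on chow had the lowest Pycr1, 1.91 CPM against 2.82 CPM, and WT mouse 3 on HFD the highest Glul, 1040.1 CPM against 772.6 CPM.

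Effects of the genotype that differed between diets or tissues by a test of the difference were those on Gpt2 between diets (0.93 on the log2 scale, HFD minus chow, adjusted p = 0.00797, edgeR) and on Asns (-0.67, adjusted p = 0.00792) and Gpt2 (-0.75, adjusted p = 0.00943) between tissues, BAT minus inguinal WAT. Each lay close to the threshold. Over 7 alternative fits the first was called in 5, the second in 4 and the third in 4.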

How the results depend on the processing

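Over the alternatives other than leaving out 1 mouse, the log2 fold change of a member kept its direction and side of the threshold in 357 cases, gained a call in 11, lost it in 22 and turned sign in 2. With 1 mouse left out these numbers were 300, 4, 23 and 1. The sign turned for Got2 on chow, from -0.023 (without KI mouse 4) to 0.25 over the left-out mice and -0.011 without the muscle and lymphocyte columns, and for Prodh between WT tissues (-0.079 without those columns). The Asns call on chow was lost without the filter (adjusted p = 0.0177) and with the replicate block (adjusted p = 0.0250).

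For the KI effect on HFD the inguinal table gave 1886 called genes, 1242 in 1 fit of all 6 groups and 1018 without the muscle and lymphocyte columns. On chow 472 genes and 2 members were called, 1121 and 4 by DESeq2, 1088 and 4 in the fit of all 6 groups, 127 and 1 with the replicate block, 1 member without the filter, and 288 to 497 genes and 1 to 3 members with 1 mouse left out. In BAT 243 genes were called, 715 by DESeq2, 834 in the fit of all 6 groups, and 134 to 313 with 1 mouse left out. For the diet difference 110 genes and 1 member were called, 414 and 2 by DESeq2, 24 and 0 with the replicate block, 2 members in the fit of all 6 groups, and 1 and 0 without the muscle and lymphocyte columns. For the tissue difference 485 genes and 2 members were called, 844 genes by DESeq2, 198 and 1 without those columns, and 0 members with RLE size factors or in the fit of all 6 groups. The cause was not tested, and the fits without columns hold fewer mice. With the replicate block the Gpt2 call was lost in the diet difference (adjusted p = 0.0448) and in the tissue difference (adjusted p = 0.0104).

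Whether same-numbered mice were littermates or otherwise paired is not given in the sources used here. Over 5000 genes, correlations of same-numbered WT and KI deviations ran from -0.34 to 0.65 on HFD in inguinal WAT. They ran from -0.54 to 0.24 on chow and from -0.17 to 0.60 in BAT. In these, 1 of 8, 1 of 6 and 3 of 6 mice correlated best with their own number, which does not settle whether mice were paired. With the replicate block 363 genes were called in BAT in place of 243. Low counts limit Pycr1 in BAT. Without TMM scaling the exact permutation p of Got1, unadjusted, went from 0.0650 to 0.0323 on HFD in inguinal WAT and from 0.0326 to 0.0559 on chow.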
